A study of Mus musculus with 6 samples.

Results

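The 34 genes described here encode the molecules that load peptides onto the major histocompatibility complex (MHC) and show them at the cell surface. They were chosen by gene symbol from a table of raw read counts in mouse synovial fibroblasts, and all 34 were found among its 24348 genes. By role they comprise 9 class I heavy chains, the class I light chain B2m, 5 genes of the immunoproteasome and its activator PA28, and 8 genes of peptide transport, trimming and loading. The remainder are the 2 transactivators Nlrc5 and Ciita, 6 genes of class II chains, invariant chain and the peptide exchanger DM, and 3 genes of endosomal antigen processing.

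MHC class I molecules show peptides from proteins made inside the cell to CD8+ T cells. The proteasome cuts these proteins, the TAP transporter carries the peptides into the endoplasmic reticulum, and a loading complex of tapasin, calreticulin and a disulfide isomerase fits them onto a heavy chain bound to B2m. Class II molecules show peptides from engulfed proteins to CD4+ T cells, and are made mainly by macrophages, dendritic cells and B cells. Interferon gamma raises class I genes in most cells through Nlrc5 and can switch on class II genes in fibroblasts through Ciita.

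Fibroblasts were flow-sorted from the collagenase-digested synovium, the membrane that lines joints, of adult wild-type C57BL/6 mice (C57BL/6J background in the study's methods). In the IC group (3 libraries) mice had received immune complexes in a tail vein, made of the antigen ovalbumin bound by rabbit polyclonal antibodies, and in the vehicle group (3 libraries) they had received a control injection. The labels name no allele or reporter that distinguished the groups. The time from injection to sorting, the sorting gate and the number of mice behind each library are not given in the sources used here, so p-values measure the spread between these libraries, which may be technical. The comparison asks whether genes of antigen presentation changed in fibroblasts after circulating IC.

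Total counts ranged from 40114331 to 56714304 per library, and depth overlapped between the groups. Values below are normalized counts, which are raw counts divided by the DESeq2 size factor of the library. A gene was tested where 3 or more libraries held 10 or more counts, which kept 19925 genes and 33 of the 34. Markers fixed for sorted fibroblasts were all found, with summed levels of 44950 to 55699 CPM (counts per 1e6 counts of the library). All 10 were above 0 in every library. DESeq2 called Prg4 higher after IC (log2 fold change 0.94, adjusted p = 0.0103). It called Col3a1 (−0.38, adjusted p = 0.00679) and Lum (−0.36, adjusted p = 0.0025) lower. None of the fibroblast markers passed the quasi-likelihood test of edgeR (adjusted p of 0.0541 or more).

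Promoters of the genes were read from RefSeq (GRCm38.p6), which gave one for 27 of the 34 genes, and the 250 bases before each start were searched on both strands for letters of known control elements. The letters GGGATTCCC of the class I kB element lay in 4 of the 27 genes (H2-D1, H2-K1, H2-Q6 and H2-Q7) against 0.352% of all 27025 genes with a promoter. The interferon response element, GAAA repeated after 2 free bases, lay in 4 of 27 genes (B2m, Ctss, H2-T22 and H2-T23) against 3.46% of all genes. The Y box CTGATTGG of MHC promoters lay in 9 genes (4.43% of all) and the X2 box TGACGC in 5 (6.93%). The gamma-activated sequence, TTC and GAA with 3 free bases between them, lay in 2 of 27 genes (H2-M3 and Psmb8) against 8.13% of all genes. The endoplasmic reticulum stress element, CCAAT and CCACG with 9 free bases between them, begins with letters that the Y box holds on its other strand, and lay in 2 of 27 genes, Calr and Canx, against 0.13% of all genes. A match is a description of letters and not a site of binding. Only these letters were searched, so a gene without a match may still hold a variant of the element. Stretches before the start are given for 6 genes of the main roles, 5′ to 3′ on the strand of the gene, without bases of annotated exons and with the matched letters in capitals. The H2-K1 stretch (chr17:34000348-34000547, minus strand) holds the kB element and then the X2 box, that of H2-Q6 (chr17:35424650-35424849, plus strand) the kB element and the Y box, and that of B2m (chr2:122147487-122147685, plus strand) the interferon element. Those of Calr (chr8:84846935-84847131, minus strand) and Canx (chr11:50325674-50325873, minus strand) hold the stress element, preceded in Canx by a Y box. That of the class II gene H2-Aa (chr17:34287824-34288023, minus strand) holds the Y box.
H2-K1: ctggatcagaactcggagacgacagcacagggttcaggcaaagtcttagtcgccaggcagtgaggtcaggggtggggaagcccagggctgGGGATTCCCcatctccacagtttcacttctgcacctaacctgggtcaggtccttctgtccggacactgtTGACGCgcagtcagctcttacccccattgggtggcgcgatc
H2-Q6: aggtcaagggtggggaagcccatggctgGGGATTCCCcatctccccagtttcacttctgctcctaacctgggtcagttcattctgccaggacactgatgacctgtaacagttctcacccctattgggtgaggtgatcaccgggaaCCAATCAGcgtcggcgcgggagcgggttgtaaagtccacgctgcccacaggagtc
B2m: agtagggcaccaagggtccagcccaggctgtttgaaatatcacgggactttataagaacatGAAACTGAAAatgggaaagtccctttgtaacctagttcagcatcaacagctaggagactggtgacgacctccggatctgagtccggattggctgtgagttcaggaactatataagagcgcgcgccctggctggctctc
Calr: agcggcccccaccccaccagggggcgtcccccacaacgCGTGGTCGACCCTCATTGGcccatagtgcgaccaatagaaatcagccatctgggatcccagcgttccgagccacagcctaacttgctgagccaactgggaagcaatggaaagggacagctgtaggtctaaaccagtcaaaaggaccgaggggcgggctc
Canx: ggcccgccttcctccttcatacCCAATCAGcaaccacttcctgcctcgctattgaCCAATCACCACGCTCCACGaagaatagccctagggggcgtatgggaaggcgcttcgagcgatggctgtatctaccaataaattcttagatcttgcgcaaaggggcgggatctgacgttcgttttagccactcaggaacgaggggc
H2-Aa: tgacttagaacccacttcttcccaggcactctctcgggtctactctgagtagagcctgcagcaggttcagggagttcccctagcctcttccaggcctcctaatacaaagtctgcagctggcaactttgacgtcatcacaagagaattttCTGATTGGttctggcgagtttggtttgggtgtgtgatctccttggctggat

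The leading class I genes and loading factors were abundant in these fibroblasts in both groups, and class II transcripts were scarce. Other class I heavy chains ranged from the 98.1 percentile (H2-Q4) to the 17.5 percentile (H2-Q7) of all tested genes. Per kb of merged exons, B2m had the highest mean level over the 6 libraries (12920 normalized counts per kb, 9853 to 15136), followed by H2-D1 (10170), the chaperone Calr (8735) and H2-K1 (6137). These 4 genes stood between the 98.9 and 99.6 percentile of the level per kb of all tested genes. The ranges of B2m, H2-D1, Calr and H2-K1 each overlapped that of the next gene in order, except that H2-K1 did not overlap Pdia3 (4067).

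A middle band of loading and processing genes followed. Pdia3, H2-Q4 (3680), Tapbp (3606) and Canx (2927) overlapped each other in order, and Canx did not overlap Ifi30 (1556), which came next. H2-T23 had 1232 normalized counts per kb, Lgmn 835, Psme1 727, Psme2 630, H2-T22 630, Tap2 616, Psmb10 525 and Tap1 493. H2-M3 (344), Erap1 (279), Psmb8 (269) and Tapbpl (227) lay lower, and Nlrc5 had 118. Psmb9 (94.0), H2-T24 (89.9) and H2-Q6 (87.9) came after it, and H2-Q7 (19.1) lay below 4 of the 6 class II genes. The class II chains, invariant chain and DM genes ranged from 6.94 (H2-Aa) to 52.7 (H2-DMa) and Ciita was lowest of all 34 at 1.58, in the 0.326 percentile of tested genes. With the length of the principal transcript in place of merged exons, an alternative chosen after seeing the data, the same 4 genes led in the same order and Ciita was again lowest.

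**Figure D1:**
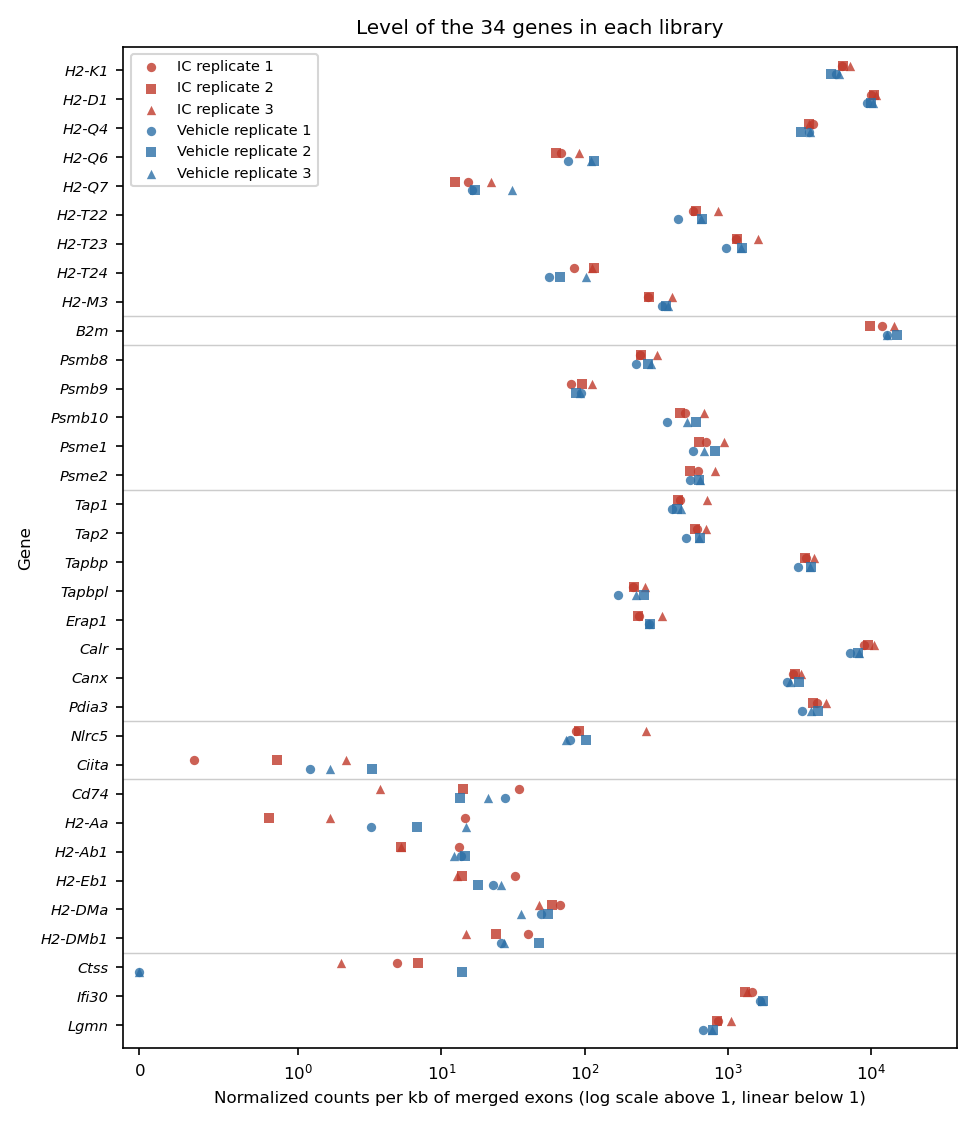
Normalized counts per kb of merged exons (x axis, log scale above 1 and linear below) of the 34 genes (y axis, grouped by role) in each of the 6 libraries. IC (red) and vehicle (blue) libraries overlap in most genes, B2m leads with a mean of 12920, and Ciita is last with 1.58.

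After IC, 1 of the 33 tested genes changed. Calr, which encodes the chaperone calreticulin, rose 1.24-fold (95% interval 1.10 to 1.39) with an adjusted p of 0.0211 by DESeq2, which called 2.1% of all tested genes, 1.03% higher and 1.07% lower. The quasi-likelihood test of edgeR called 0 of the 33 genes and 0.186% of all genes, and limma-voom 0 and 0.311%. At an unadjusted p under 0.05, DESeq2 found 5 of the 33 genes (H2-K1, Tap1, Calr, Ifi30 and Lgmn) against 9.8% of all genes, and edgeR 5 (H2-K1, Calr, Ifi30, Lgmn and Nlrc5) against 9.64%. The IC and vehicle libraries did not overlap in 4 of the 33 genes (H2-K1, Calr and Lgmn above, Ifi30 below), which is 12.1% of them. Over all tested genes the share was 15.8%, with 8.09% above and 7.67% below. The share of the 33 genes without overlap was thus below that of all genes. The share called by DESeq2 was near but above that of all genes, through 1 gene. By edgeR and limma-voom it was 0. At an unadjusted p under 0.05 the share was above that of all genes in both tests, with 5 genes each.

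In direction, 21 of the 33 genes had a log2 fold change above 0 and 12 below, against 49.6% above in all genes, and their median was 0.09 against −0.0019 for all tested genes. That median rested on IC replicate 3, since without this library it was −0.013 and 15 of 33 genes were above 0. Without vehicle replicate 1 it was 0.02. The intervals of most genes included 0, so a difference of small size in either direction remained possible at 3 libraries a group.

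**Figure D2:**
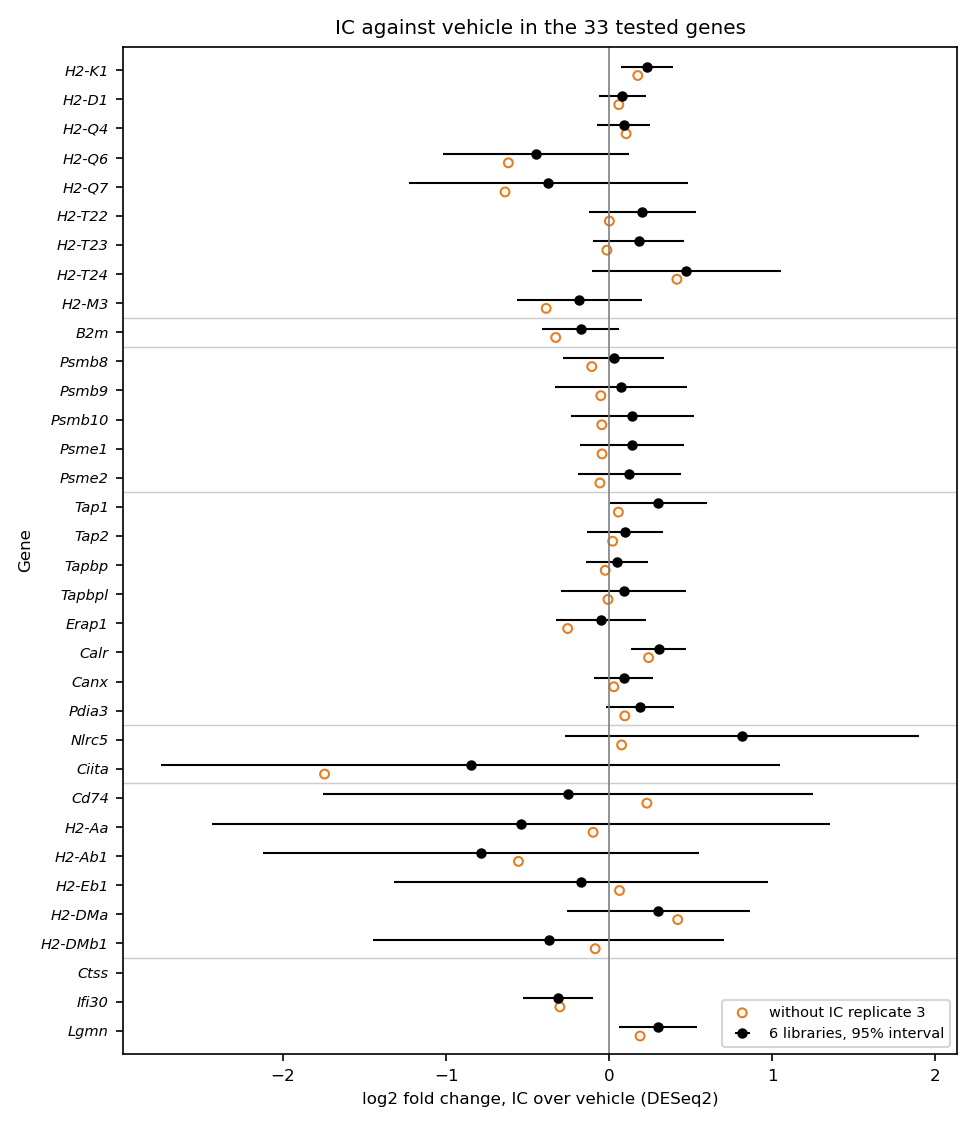
Log2 fold change of IC over vehicle by DESeq2 (x axis) for the 33 tested genes (y axis, grouped by role; Ctss was not tested). Black points with bars are estimates from 6 libraries with 95% intervals, and open circles are estimates without IC replicate 3, which lie to the left of the black points in all genes of the immunoproteasome and of loading.

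Among class I heavy chains, which bind the peptide, no gene of 9 passed the test. H2-K1 (chr17:33996017-34000347, minus strand, GRCm38), a classical class I gene, had 18572, 18900 and 20953 normalized counts in IC replicates 1 to 3, and 16775, 15419 and 17571 in vehicle replicates 1 to 3. Each IC library stood above each vehicle library, by 1.17-fold on average (95% interval 1.05 to 1.31), and the adjusted p was 0.117 (DESeq2) and 0.351 (edgeR).

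H2-D1 (chr17:35262730-35267499, plus strand), the other classical gene of this strain, had 25744, 27354 and 27813 normalized counts after IC and 24172, 25768 and 26515 after vehicle. Its groups overlapped, with a fold of 1.06 (95% interval 0.959 to 1.17, DESeq2 adjusted p = 0.801).

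Nonclassical heavy chains had estimates on either side of 0. H2-T24 had 184, 253 and 246 normalized counts after IC and 124, 147 and 223 after vehicle, a log2 fold change of 0.47 ± 0.30 (SE, DESeq2 adjusted p = 0.610). Only vehicle replicate 3 reached the IC range. H2-Q6 had 143, 132 and 189 against 161, 244 and 231, with the log2 fold change at −0.45 ± 0.29 (DESeq2 adjusted p = 0.638) and vehicle replicate 1 inside the IC range.

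The other 5 heavy chains had log2 fold changes of −0.37 (H2-Q7) to 0.20 (H2-T22). H2-T23, which encodes Qa-1, a ligand of inhibitory receptors on natural killer cells, had 4735 normalized counts in IC replicate 3 against 2792 to 3637 in the other 5 libraries. Over the 9 heavy chains 6 log2 fold changes were above 0 and 3 below, with a median of 0.09, and of 0.0019 without IC replicate 3. H2-Q6 and H2-Q7 share 5.99% and 5.90% of their 150-base stretches with other genes of the family, so their counts are uncertain.

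B2m (chr2:122147686-122153083, plus strand), the light chain of class I molecules, had an estimate below 0 that did not pass the test. It had 10305, 8473 and 12539 normalized counts after IC and 11114, 13017 and 11218 after vehicle. IC replicate 2 was lowest and vehicle replicate 2 highest, and IC replicate 3 lay within the vehicle range. The log2 fold change was −0.17 ± 0.12 (SE, DESeq2 adjusted p = 0.677), and −0.33 without IC replicate 3. Summed over B2m and the 9 heavy chains, class I transcripts took 1476, 1488 and 1646 CPM after IC. After vehicle they took 1439, 1410 and 1475 CPM. On this scale of library totals each IC library was above each vehicle library, by 1476 against 1475 for the nearest pair. With size factors in place of totals the groups overlapped, so the order depends on the scaling. This sum was not tested.

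The immunoproteasome replaces catalytic subunits of the proteasome with the interferon-inducible subunits Psmb8, Psmb9 and Psmb10, and Psme1 and Psme2 form the PA28 cap. None of these 5 genes passed the test, and DESeq2 adjusted p ranged from 0.876 to 0.987. Psmb8 (chr17:34197721-34201454, plus strand) had 831, 841 and 1080 normalized counts after IC and 776, 940 and 987 after vehicle, a fold of 1.02 (95% interval 0.822 to 1.26). IC replicates 1 and 2 lay inside the vehicle range and IC replicate 3 above it.

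Psmb10 had 854, 795 and 1165 normalized counts after IC and 641, 1020 and 892 after vehicle, with a log2 fold change of 0.14 ± 0.19 (SE, DESeq2 adjusted p = 0.901). Psme1 had 1567, 1397 and 2083 against 1271, 1802 and 1511, with 0.14 ± 0.16 (DESeq2 adjusted p = 0.876). Psme2, which shares 12.1% of its 150-base stretches with Psme2b, had 1090, 956 and 1433 against 954, 1105 and 1134, with 0.12 ± 0.16 (DESeq2 adjusted p = 0.892). In each of these genes IC replicate 3 was the highest library and the other IC libraries lay inside the vehicle range. All 5 genes had a log2 fold change above 0, and without IC replicate 3 all 5 were below 0, with a median of −0.051 in place of 0.12.

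Each immunosubunit can be set against the constitutive subunit it replaces, per kb of merged exons. The ratio of Psmb8 to Psmb5 was 0.361 ± 0.0073 (SD, n = 3) after IC and 0.360 ± 0.044 (SD, n = 3) after vehicle. That of Psmb9 to Psmb6 was 0.0935 ± 0.011 (SD, n = 3) and 0.0966 ± 0.0089 (SD, n = 3). That of Psmb10 to Psmb7 was 1.34 ± 0.246 (SD, n = 3) and 1.18 ± 0.200 (SD, n = 3). The groups differed by less than the spread between libraries in all 3 ratios. IC replicate 3 had ratios of 0.369, 0.0858 and 1.59, so it stood highest for Psmb10 but lowest of the 6 for Psmb9. The size of each ratio depends on the length used, which does not alter the comparison between groups.

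Peptide transport, trimming and loading held the gene that changed. Calr (chr8:84841850-84846934, minus strand), a chaperone of the endoplasmic reticulum that holds newly made heavy chains in the loading complex and also serves other glycoproteins and calcium storage, had 25881, 27337 and 30202 normalized counts after IC. After vehicle it had 20522, 23253 and 23740. All IC libraries exceeded all vehicle libraries, and the log2 fold change was 0.31 ± 0.09 (SE). The edgeR adjusted p was 0.215. Among 9 ways of testing the 6 libraries Calr was called in 7, and with 1 library left out it was called in 2 of 6 cases, with DESeq2 adjusted p of 0.0198 to 0.171. The call was lost when IC replicate 2 (adjusted p = 0.0910), IC replicate 3 (0.171), vehicle replicate 1 (0.0648) or vehicle replicate 2 (0.0558) was removed.

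**Figure D3:**
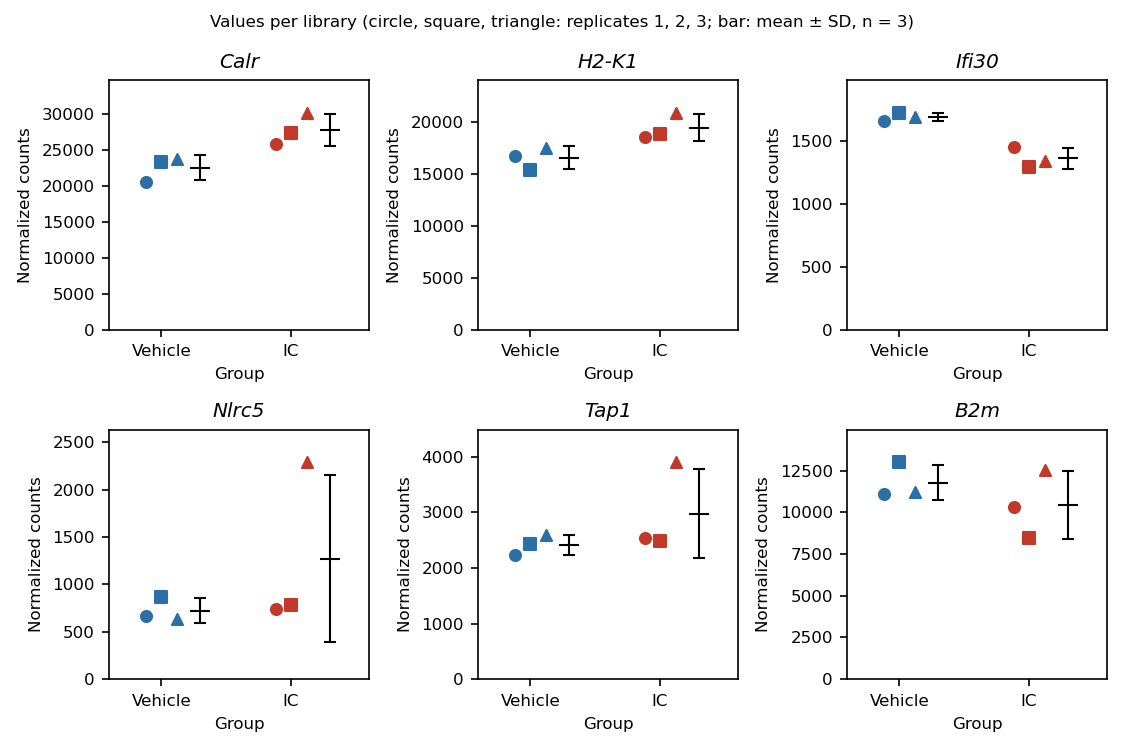
Normalized counts (y axis, from 0) of 6 genes in the vehicle (blue) and IC (red) groups, with circle, square and triangle for replicates 1, 2 and 3 and the mean ± SD (n = 3) beside them. The groups do not overlap for Calr, H2-K1 and Ifi30, and IC replicate 3 stands apart for Nlrc5 (2293) and Tap1 (3907).

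The partners of calreticulin in the loading complex did not pass the test. Pdia3, the disulfide isomerase ERp57, had 13231, 12284 and 15278 normalized counts after IC and 10391, 13407 and 12010 after vehicle, with a log2 fold change of 0.19 ± 0.11 (SE, DESeq2 adjusted p = 0.527). Its groups overlapped through vehicle replicate 2. Canx, the membrane-bound relative of calreticulin, had a fold of 1.07 (95% interval 0.939 to 1.21), and an adjusted p (DESeq2) of 0.849. Tapbp, which encodes tapasin, had a fold of 1.03 (95% interval 0.907 to 1.18).

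Tap1 (chr17:34187553-34197225, plus strand), one chain of the peptide transporter, had 2548, 2479 and 3907 normalized counts after IC and 2230, 2436 and 2586 after vehicle. IC replicate 3 had 1.55 times the mean of the other IC libraries, and these lay within the vehicle range. The log2 fold change was 0.30 ± 0.15 (SE, unadjusted p = 0.0464 and adjusted p = 0.421 by DESeq2), and 0.06 without IC replicate 3. Tap2, the other chain, had 0.10, the editor Tapbpl 0.09 and the trimming peptidase Erap1 −0.05, which was −0.25 without IC replicate 3. An exon of Psmb9 lies across the start of Tap1 on the other strand, and the strand setting of the counting is not given in the sources used here.

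Of the transactivators, Nlrc5 (chr8:94434356-94527272, plus strand), the coactivator of class I genes, stood out through 1 library. It had 745 and 781 normalized counts in IC replicates 1 and 2 and 2293 in IC replicate 3, against 668, 870 and 632 after vehicle. IC replicate 3 had 3.0 times the mean of the other IC libraries, which lay inside the vehicle range. The log2 fold change was 0.82 ± 0.55 (SE), and without this library it was 0.08. DESeq2 gave an adjusted p of 0.669, and edgeR one of 0.507 (unadjusted 0.0458). Ciita, the master regulator of class II genes, had 3.31, 8.27 and 20.6 normalized counts after IC and 11.5, 31.2 and 15.8 after vehicle, with a log2 fold change of −0.85 ± 0.97 (SE) and no adjusted p from DESeq2 at this low count (edgeR adjusted p = 0.857). These counts are too low to show a difference of moderate size.

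IC replicate 3 was the highest of the 6 libraries in 20 of the 33 genes, against 18.2% of all tested genes, and vehicle replicate 1 the lowest in 16 of 33 against 17.9%. Among the 33 genes the pattern lay mainly in those of class I processing, and lists outside them that also showed it are given below. IC replicate 3 was highest in 5 of 5 genes of the immunoproteasome and PA28, in 8 of 8 of transport and loading and in 5 of 9 heavy chains, but in 0 of 6 class II genes, where it was lowest in 3 against 18.9% of all genes. Vehicle replicate 1 was lowest in 4 of 5, 7 of 8, 4 of 9 and 0 of 6 of these genes. The log2 level relative to the 6-library mean had a median of 0.37 in IC replicate 3 over the immunoproteasome genes, against −0.07 and −0.17 in IC replicates 1 and 2, and of 0.24 over the loading genes, against −0.04 and −0.05.

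**Figure D4:**
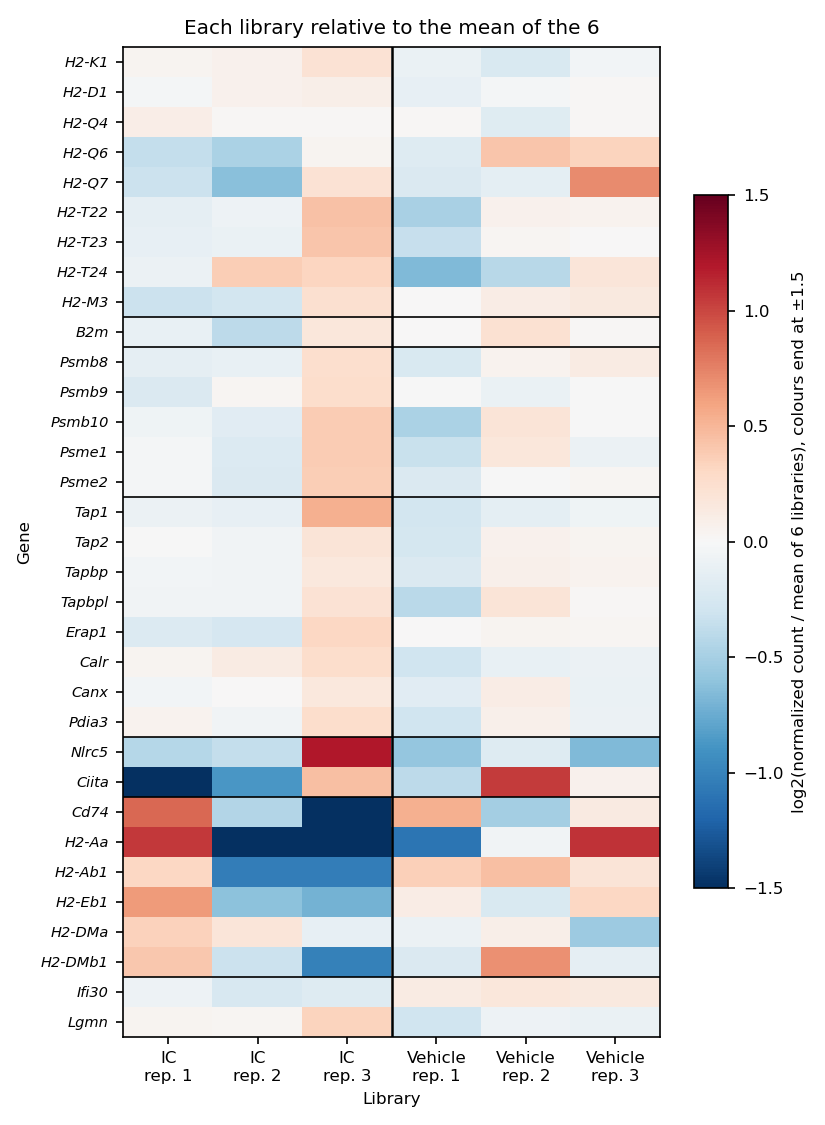
Log2 of the normalized count over the mean of the 6 libraries (colour, red above and blue below, ending at ±1.5) for the 33 tested genes (rows, grouped by role) in each library (columns). IC replicate 3 is red through the immunoproteasome and loading genes with the deepest red at Nlrc5, while IC replicate 1 is the highest of the IC libraries in all 6 class II genes.

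IC replicate 3 also led in genes outside the 34. Among 16 genes of the constitutive proteasome and other activators, IC replicate 3 was highest in 14 and the median log2 fold change was 0.05, or −0.07 without it. It was highest in 9 of 12 other peptidases and loading factors, in 1 of 13 MHC regulators and in 3 of 9 other class II pathway proteins. Summed endothelial markers (10 of 10 found) were at 287, 296 and 218 CPM after IC and 353, 298 and 346 after vehicle, each IC library below each vehicle library, and DESeq2 called 3 of them lower (Kdr, Cdh5 and Cldn5). Skeletal muscle markers (10 of 10) were at 29.9, 24.2 and 14.4 against 50.7, 68.5 and 25.3, with 2 called lower (Myh1 and Myl1). No endothelial or muscle marker passed edgeR. Macrophage markers (9 of 14) were at 38.1, 35.8 and 26.3 against 35.7, 30.0 and 32.7, with none called. IC replicate 3 was lowest of the 6 in each of these sums. The part of these cells in the order of the libraries was not tested, and in bulk RNA fewer cells of a type and less RNA per cell cannot be told apart.

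**Figure D5:**
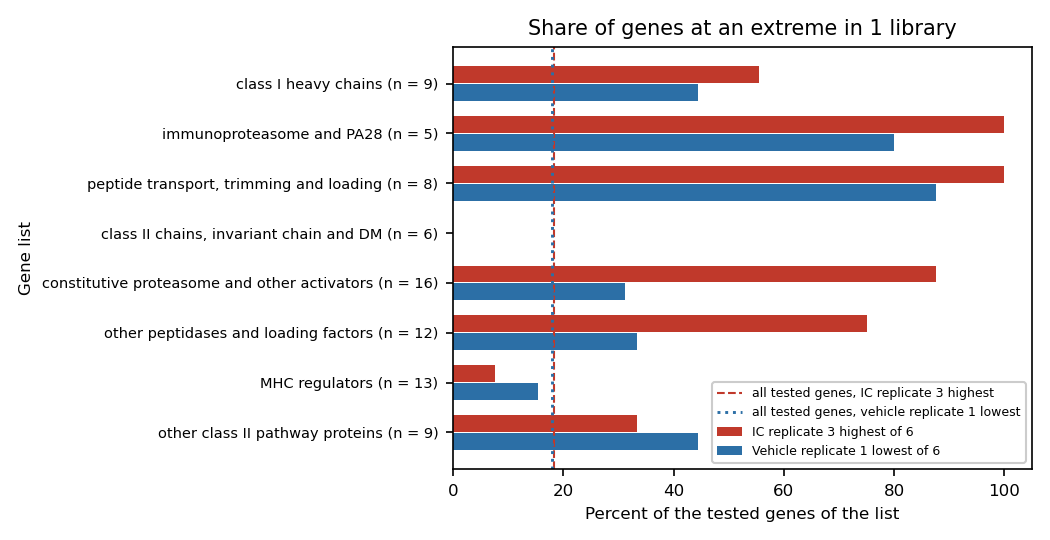
Percent of the tested genes of each list (y axis, n in brackets) in which IC replicate 3 was the highest (red) or vehicle replicate 1 the lowest (blue) of the 6 libraries. Dashed and dotted lines mark 18.2% and 17.9% over all tested genes, and the immunoproteasome and loading lists reach 100% for IC replicate 3.

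Class II transcripts were at low levels in all 6 libraries, with no gene of 6 past the test and only 3 with an adjusted p from DESeq2. H2-Ab1, the beta chain of I-A, had 34.2, 13.4 and 13.4 normalized counts after IC and 35.3, 37.8 and 31.6 after vehicle, with a log2 fold change of −0.79 ± 0.68 (SE, edgeR adjusted p = 0.782). IC replicate 1 kept the groups from separating. H2-Aa, its alpha chain partner, had 55.1, 3.10 and 6.27 after IC and 12.3, 25.5 and 55.9 after vehicle, with −0.54 ± 0.97 (SE, edgeR adjusted p = 0.931), so libraries of each group spanned most of the range.

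Cd74, the invariant chain (chr18:60803848-60812652, plus strand), had 58.4, 23.8 and 6.27 normalized counts after IC and 46.7, 22.7 and 35.3 after vehicle. Its log2 fold change was −0.25 ± 0.77 (SE, edgeR adjusted p = 0.965). IC replicate 1 was highest and IC replicate 3 lowest of the 6.

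The DM genes encode the exchanger that swaps peptides on class II molecules. H2-DMa, the most abundant of the 6, had 230, 206 and 167 normalized counts after IC and 171, 193 and 124 after vehicle (log2 fold change 0.30 ± 0.29, SE, DESeq2 adjusted p = 0.827). It lay above 0 where the other 5 lay below. H2-DMb1 had 67.2, 40.3 and 25.1 against 43.5, 81.2 and 46.2 (−0.37 ± 0.55, SE, DESeq2 adjusted p = 0.912), and H2-Eb1 had 25.1 to 63.9 over the 6 libraries. H2-DMb1 shares 4.71% of its 150-base stretches with H2-DMb2, and H2-DMa overlaps an exon of Brd2 on the other strand. The class II median of −0.31 was −0.011 without IC replicate 3, and −1.02 without IC replicate 1.

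The 6 class II genes summed to 10.6, 6.60 and 5.02 CPM after IC and to 7.58, 8.01 and 7.05 after vehicle. Macrophage markers summed to 26.3 to 38.1 after IC and 30.0 to 35.7 after vehicle, and of the 9 in the table C1qb, C1qc and Cx3cr1 were at 0 in at least 1 library. Cd68 carried most of this sum, with 1061 to 1506 normalized counts, and the other 8 had at most 128. Dendritic cell markers (2 of 10 in the table) summed to 15.8 to 18.5 and 14.7 to 20.5, most of it from Zbtb46 (570 to 778 normalized counts). B cell markers (4 of 10) summed to 3.65 to 3.90 after IC and 6.63 to 9.12 after vehicle, without overlap. Ighm fell by DESeq2 (log2 fold change −1.98, adjusted p = 1.9e-05) but did not pass edgeR (adjusted p = 0.0541). Pax5 went the other way, with 9.92, 15.5 and 48.4 normalized counts after IC and 0 in each vehicle library, Cd79a did not pass (−0.38) and Ighd was at 0 in 3 libraries. Their part in the class II levels was not tested.

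Endosomal processing held 2 genes without overlap between groups, in opposite directions. Over all tested genes 15.8% were without overlap, and neither of these genes passed the test. Ifi30 (chr8:70762774-70766663, minus strand), which encodes the thiol reductase GILT that opens disulfide bonds of engulfed proteins, had 1452, 1292 and 1340 normalized counts after IC and 1660, 1724 and 1691 after vehicle. Each IC library was below each vehicle library, by a fold of 0.805 (95% interval 0.694 to 0.933). Adjusted p were 0.106 (DESeq2) and 0.218 (edgeR). Its log2 fold change stayed between −0.36 and −0.28 with any 1 library left out. An exon of Ifi30 overlaps an exon of 6330537M06Rik on the other strand, and the strand setting of the counting is not given.

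Lgmn, the asparaginyl endopeptidase legumain, had 1997, 1971 and 2447 normalized counts after IC and 1572, 1842 and 1807 after vehicle. All IC libraries were higher, by 1.23-fold (95% interval 1.04 to 1.45), and the adjusted p was 0.236 by DESeq2 and 0.365 by edgeR. Ctss, the cathepsin that trims the invariant chain in professional antigen-presenting cells, had raw counts of 6, 9 and 3 after IC and 0, 20 and 0 after vehicle, and was not tested.

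The wider pathway was read from lists of genes outside the 34. Among 12 tested peptidases and loading factors, 2 passed DESeq2, both higher. Ide, the insulin-degrading enzyme, had 3542, 3580 and 5033 normalized counts after IC and 2687, 2830 and 2957 after vehicle, with a log2 fold change of 0.52 ± 0.13 (SE, DESeq2 adjusted p = 0.00459). Sec61a1, the pore of the endoplasmic reticulum translocon, had 13357, 13805 and 17192 against 10640, 12173 and 12286, with 0.34 ± 0.10 (DESeq2 adjusted p = 0.0431). The groups did not overlap in either gene. Neither passed edgeR, where the adjusted p were 0.136 and 0.266, or limma-voom (0.129 and 0.215). With 1 library left out, Ide kept its DESeq2 call in each case (adjusted p of 0.00499 to 0.0497). Sec61a1 kept it only without IC replicate 1 (0.0347) and lost it without any other library, IC replicate 2 (0.0734) or 3 (0.304) or vehicle replicate 1 (0.153), 2 (0.116) or 3 (0.136).

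None of the 16 constitutive proteasome genes, 13 MHC regulators, 9 other class II pathway proteins, 8 other class I and class I-like genes, 4 costimulation and checkpoint ligands and 1 other class II gene tested passed DESeq2 or edgeR. Among them 1 gene of the class II pathway proteins and 1 of the ligands had an unadjusted p under 0.05 in either test. These were Ctsf, a lysosomal protease, with a log2 fold change of −0.22 ± 0.09 (SE, DESeq2 adjusted p = 0.203), and Icosl, the ligand of the T cell costimulator ICOS, with −0.41 ± 0.13 (DESeq2 adjusted p = 0.0550). In both genes each IC library lay below each vehicle library. Icosl had 1496, 1619 and 1729 normalized counts after IC and 1782, 2363 and 2290 after vehicle.

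Regulators upstream of MHC genes also differed by little. Irf1, an interferon-induced activator of class I promoters, had 48486, 47732 and 47005 normalized counts after IC and 44132, 41784 and 46393 after vehicle, without overlap but with a log2 fold change of 0.11 ± 0.07 (SE, DESeq2 adjusted p = 0.590). Nfya, a subunit of the factor that binds the Y box, had 0.14 ± 0.08 (DESeq2 adjusted p = 0.589). Rfx5, which binds the X box of class II promoters, had −0.10 ± 0.13 (DESeq2 adjusted p = 0.896). The constitutive subunits Psmb5, Psmb6 and Psmb7, with log2 fold changes of 0.01, 0.13 and −0.05, overlapped between groups, as did Psmb3 (0.14) and Psmb4 (0.15).

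Of the remaining genes that the naming rule gave, Cd1d1, which shows lipids to natural killer T cells, had a log2 fold change of 0.36 ± 0.25 (SE, DESeq2 adjusted p = 0.667) with all IC libraries above vehicle. Mr1, which shows bacterial vitamin metabolites, had −0.14, the protease Ctsl −0.16 and the costimulator Cd80 −0.69 ± 0.50, at 25.3 to 114 normalized counts. H2-DMb2 had 0 to 25.5 and gives no usable fold.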

How the data were processed

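Total RNA of sorted synovial fibroblasts was sequenced in 3 IC and 3 vehicle libraries, grouped by the sample labels. The authors deposited raw counts per gene symbol. Reads had been trimmed with Trim Galore, aligned to mm10 with HISAT2 and counted with featureCounts, and tool versions, annotation and strand setting are not given in the sources used here. Library kits differ between the labels and the methods. The 6 per-sample files equalled their columns of the table. Totals of 40114331 to 56714304 counts limit precision at the low counts of class II genes.

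Genes for which 3 or more libraries held 10 or more counts were tested by the Wald test of DESeq2 (version 1.42.0, R 4.3.3) with treatment as the only term, with p adjusted by Benjamini-Hochberg over all genes and a threshold of 0.05. Fold changes are unshrunken. Of 19925 genes, 3870 had no adjusted p. The tests were checked on simulated counts. Other settings tried were edgeR's quasi-likelihood test (4.0.16), limma-voom (limma 3.58.1), scaling by TMM or by totals, all genes without the filter, independent filtering off, 1 surrogate variable (sva 3.50.0, which the methods name without settings), a replicate block and leaving out each library. Lengths, positions and shared 150-base stretches came from GENCODE M21 on GRCm38, the assembly of mm10, and promoters from RefSeq.

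The 34 genes and all lists were chosen with earlier results of these data known. Named genes were those called by DESeq2, the 3 with the smallest p in each role, 10 set genes, and in each outside list those called, the 2 with the smallest p and 6 set genes. One of these set genes is not reported here. Replicate numbers were not treated as pairs. Deviations from the group means correlated at −0.09, −0.16 and 0.02 between libraries of the same number, over 13435 genes. Between libraries of different number the correlations were −0.12 to 0.24. With 3 libraries a group these values cannot exclude a pairing.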

Additional observations from a re-analysis of the deposited data

How the results depend on the processing

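The number of genes called was 419 with DESeq2, 37 with edgeR and 62 with limma-voom, and 281 to 677 with 1 library left out (677 without vehicle replicate 1). Of the 33 genes 1, Calr, was called by DESeq2 and 0 by edgeR and limma-voom, although edgeR's unadjusted p was under 0.05 for 5, and 0 to 1 with 1 library left out. Whether replicate numbers pair libraries was not settled. With the replicate block 320 genes were called, of which 1 was among the 33, Calr. The class II median ran from −1.02 to −0.011 with 1 library left out. The IC ratios were 1.36 (Psmb8 to Psmb5), 0.183 (Psmb9 to Psmb6) and 0.670 (Psmb10 to Psmb7) without a length term and 0.749, 0.108 and 0.593 per kb of principal transcript, the latter chosen after seeing the data. With 1 library left out they ranged over 0.357 to 0.364, 0.0871 to 0.0973 and 1.22 to 1.47. Log2 fold changes that turned sign with 1 library left out ranged from −0.11 to 0.10 (Psmb8), −0.045 to 0.30 (Psmb10), −0.043 to 0.28 (Psme1), −0.057 to 0.25 (Psme2), −1.23 to 0.23 (Cd74) and −2.72 to 0.18 (H2-Aa). H2-T23, Psmb9, Tap2, Tapbp, Tapbpl, Erap1 and H2-Eb1 also turned sign, within −0.74 and 0.27. None of the 21 genes of the 34 followed through them turned sign in the alternatives that kept all 6 libraries, and genes outside the 34 were not followed through all of these. Causes of these shifts were not tested, and depth limits class II genes and Ciita.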
